A study of Mus musculus with 69 samples.

Results

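The lung of mice 28 days after a single high dose of NRCWE-025, a titanium dioxide nanomaterial (NM), was set against the lung of mice that had received vehicle alone. The arrays were chosen by their labels, which give the material, day and dose: 4 arrays of NRCWE-025 at 162 µg on day 28 (the treated arrays) and the 5 vehicle controls of day 28, together 9 of the 69 arrays in the series. The whole series covered NRCWE-025 and a further nano-TiO2, NRCWE-030, at 18, 54 and 162 µg on days 1 and 28, each day with 5 vehicle controls that served both materials. All mice were female C57BL/6, 5 to 7 weeks of age when obtained and kept for 1 to 3 weeks before the exposure, and every group, the controls included, received water with 2% serum into the trachea. Each array held the RNA of 1 mouse, from a small frozen piece of lung, in the Cy5 channel, and a commercial reference RNA pooled from mouse tissues in the Cy3 channel, with no dye swap. Each value is a log2 of the lung signal over the reference signal, so that a level compares 1 gene between arrays and not 2 genes on 1 array. The comparison asks which differences in lung expression were present 28 days after the instillation, across the 18660 genes tested.

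Between 55.8% and 72.3% of spots stood well above background in Cy5 on the treated arrays and between 58.0% and 71.3% on the controls. No spot was saturated in Cy5, and saturation in Cy3 was not counted. In Cy3, the reference channel, the share was 60.3% to 64.3% on the treated arrays. It was 55.7% on control replicate 3 and 61.9% to 63.9% on the other controls. On that control the fitted Cy3 background, after local subtraction, was 82.4, against 5.72 to 15.1 on the other controls. Arrays of the same group correlated across genes with Pearson's r of 0.944 to 0.980 (6 treated pairs) and 0.952 to 0.983 (10 control pairs), where genes are not independent replicates. The treated arrays lay on 4 slides, scanned on days 5 to 11 of the 11 scan days, and the controls on 5 slides, scanned on days 2 to 6, with 1 slide and scan day in common. The labels number the day 28 controls 373 to 377 and the dosed mice of the series 1 to 108, and whether controls and dosed mice were handled together is not given in the sources used here. The defining markers of lung were well above background on all 9 arrays, with Sftpa1 (surfactant protein A) at 6.07 ± 0.13 (SD, n = 5) in controls and 6.09 ± 0.17 (SD, n = 4) in treated mice. In bulk tissue, fewer cells of a type and less RNA per cell cannot be told apart. The p-values rest on the spread between mice within the groups of a fit. That spread also holds slide and scan day, for which the stated fits had no term.

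Inhaled or instilled particles settle on the airway and alveolar surface, where macrophages take them up into lysosomes, and a persistent load is known for attracting neutrophils and for chemokine and acute phase gene expression. Heat shock proteins are chaperones that fold or refold client proteins, and the inducible members are switched on by the transcription factor HSF1 when unfolded protein builds up. HSC70, the product of Hspa8, is a constitutive member of the HSP70 family, while CIRBP is an RNA binding protein known for its induction by mild cold.

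Of 18660 genes, 3 differed from control at 162 µg (0.0161% of those tested, limma, Benjamini-Hochberg adjusted p under 0.05): Hspa8 and Adamts9 fell and Cirbp rose. At an unadjusted p under 0.05 there were 1350 genes (7.23%), of which 682 were higher and 668 lower, and the median change over all genes was -0.0037.

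Hspa8 stood at -1.41, -0.94, -1.20, -1.36 and -1.13 in control replicates 1 to 5 and at -2.63, -2.25, -1.91 and -2.30 in treated replicates 1 to 4. Every treated mouse lay below every control, with a spread of 0.19 (SD) in controls and 0.29 in treated mice. The log2 change was -1.06 ± 0.15 (SE), a 2.09-fold lower level (adjusted p = 0.0156 from limma). Both probes of Hspa8 gave the direction, with -0.92 and -1.21. Cirbp stood at 0.77, 0.62, 0.64, 0.97 and 1.28 in controls and at 1.89, 1.58, 1.81 and 1.63 in treated mice. The lowest treated value again lay beyond the highest control, which was replicate 5. The log2 change of Cirbp, read by 1 probe, was 0.87 ± 0.13 (SE), or 1.83-fold higher (adjusted p = 0.0291). Adamts9, a secreted protease that cleaves the proteoglycans versican and aggrecan, stood at 1.21, 1.31, 1.27, 0.87 and 1.04 in controls and at 0.35, 0.58, 0.63 and 0.29 in treated mice, and the groups did not overlap. Its log2 change was -0.68 ± 0.11 (SE), or 1.60-fold lower (adjusted p = 0.0291), and its probes differed in size, with -1.09 for one and -0.27 for the other, which was well above background on 1 of 4 treated and 2 of 5 control arrays.

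**Figure D1:**
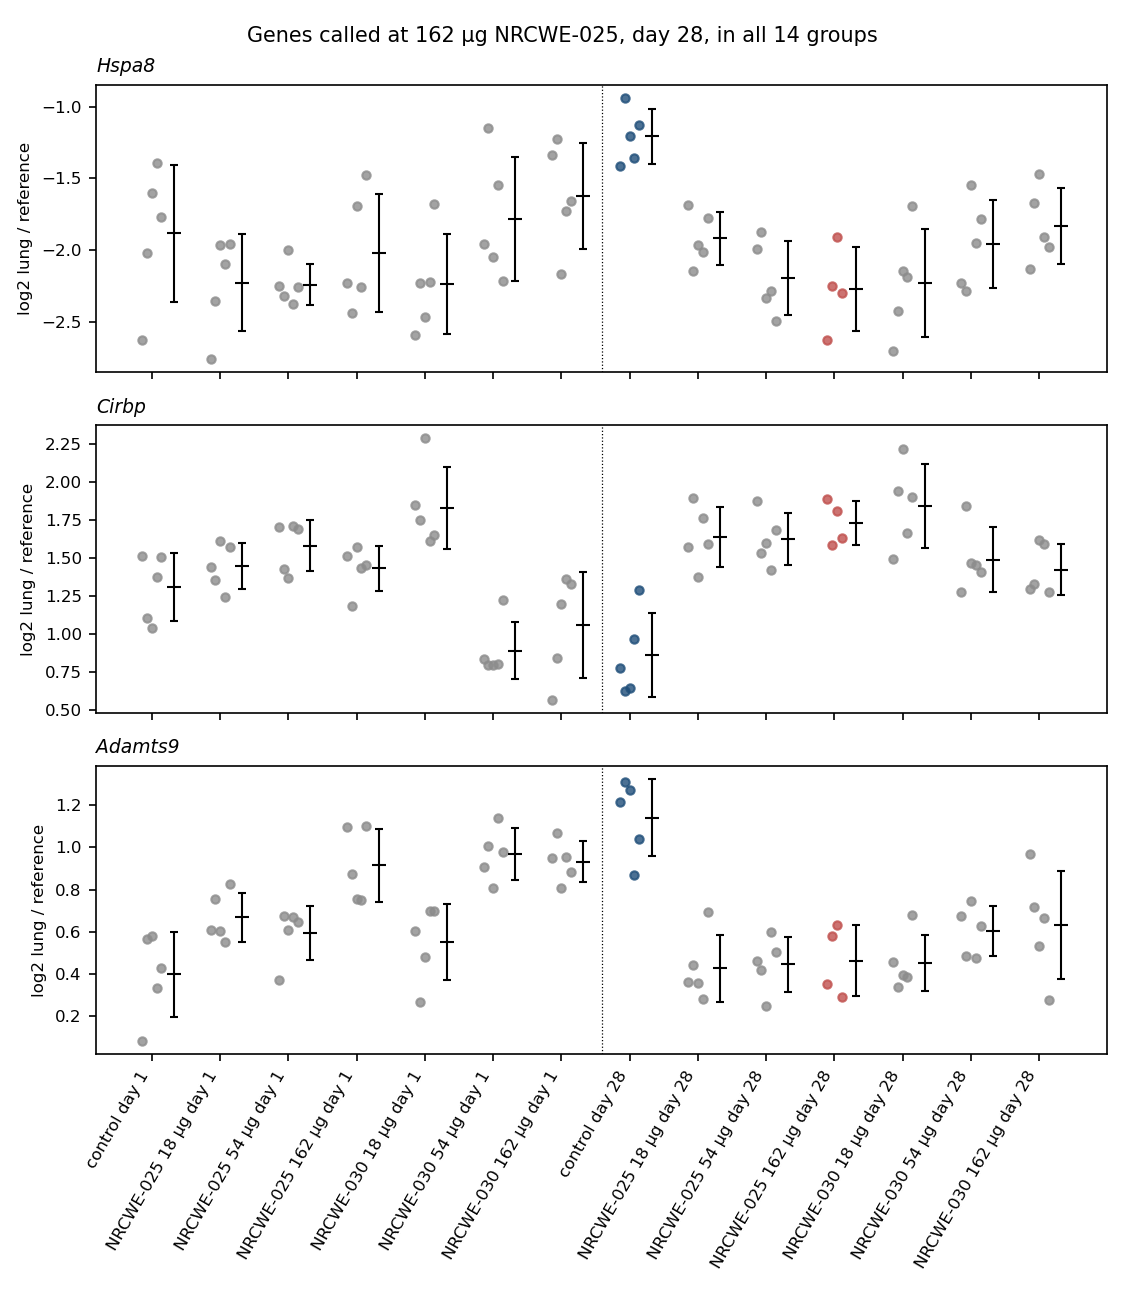
Log2 ratio of lung to reference (vertical axis) of Hspa8, Cirbp and Adamts9 on each array of the 14 groups, with points for mice and black bars for the mean ± SD. The day 28 controls hold the highest mean of 14 for Hspa8 (-1.21) and Adamts9 (1.14) and the lowest for Cirbp (0.86).

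The calls rested on few arrays: the count of 3 was 0 without control replicates 2 or 3 or treated replicates 2 or 4, 1 without control replicate 1, treated replicate 1, replicate 1 of 18 µg or replicate 2 of 54 µg, and 6 without control replicate 5. Leaving out 1 of the 19 arrays at a time ended the call of Hspa8 in 5 of 19 fits (without control replicates 2 or 3, or treated replicates 1, 2 or 4; adjusted p = 0.0528 to 0.0862 from limma), that of Cirbp in 9 and that of Adamts9 in 10 (both up to 0.141), with the log2 change never nearer 0 than -0.94, 0.81 and -0.62. For Cirbp these were controls 1, 2 or 3, any treated replicate, replicate 1 of 18 µg or replicate 2 of 54 µg, and for Adamts9 controls 1, 2 or 3, treated replicates 1, 2 or 4, or replicate 1 or 2 of either lower dose. The calls of Hspa8 and Cirbp also ended with values scaled between arrays and with the lower doses left out of the fit, and that of Adamts9 in 10 of 14 other settings (adjusted p = 0.0556 to 0.997). Slide and scan day coincided in these 19 arrays, so their blocks are the same fits, and the 14 settings count each under both names. With slide as a fixed block the changes were -1.03 for Hspa8 (adjusted p = 0.503 from limma), 1.04 for Cirbp (0.27) and -0.64 for Adamts9 (0.997), none called. Within the 1 slide that held both groups, treated replicate 1 minus control replicate 4 was -1.27 for Hspa8, 0.92 for Cirbp and -0.52 for Adamts9.

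The level of each called gene in the other groups placed the day 28 controls at one end of the order. Of the 14 group means of the series, that of the day 28 controls was the highest for Hspa8 and Adamts9 and the lowest for Cirbp, while the treated group had rank 14 from the highest for Hspa8, rank 3 for Cirbp and rank 10 for Adamts9. Of the 13 gaps between neighbouring means, 12 for Hspa8, 12 for Cirbp and 11 for Adamts9 were under the smaller SD of the 2 groups, and the gap next to the day 28 controls was 0.41, 0.029 and 0.17. For Hspa8 the vehicle controls of day 1 stood at -1.88 ± 0.48 (SD, n = 5), with a wider spread than those of day 28. Day 28 minus day 1 in controls alone came to 0.74 ± 0.10 (SE, adjusted p = 1.37e-05 from limma) for Adamts9, 0.67 ± 0.20 (adjusted p = 0.275) for Hspa8 and -0.45 ± 0.14 (adjusted p = 0.287) for Cirbp. Adamts9 thus differed between the 2 control groups themselves, and with the opposite sign to its change at 162 µg on day 28.

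The lower doses of NRCWE-025 shared the 5 controls, and their changes are set beside those of the high dose. Hspa8 stood at -0.71 at 18 µg (adjusted p = 0.0806 from limma), -0.99 at 54 µg (adjusted p = 0.0142) and -1.06 at 162 µg. Cirbp stood at 0.78, 0.76 and 0.87, and Adamts9 at -0.71, -0.70 and -0.68, each called at all 3 doses. With NRCWE-030, against the same controls, all 3 genes were called at 18 µg, with -1.02 for Hspa8 (adjusted p = 0.0202 from limma), 0.98 for Cirbp (adjusted p = 0.0087) and -0.69 for Adamts9 (adjusted p = 0.0169). At 54 µg of NRCWE-030 they stood at -0.75, 0.63 and -0.54, and at 162 µg at -0.62, 0.56 and -0.51, none of them called. Genes called against control numbered 11 at 18 µg (0.0589%) and 5 at 54 µg (0.0268%), so that the count was not largest at the highest dose. The group sizes were unlike, with 4 arrays at 162 µg and 5 at each lower dose. The count at 162 µg also ran from 0 to 6 with 1 array left out, so no order of the doses is read from it.

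Setting the high dose against the lower doses removes the controls from the comparison. Against 18 µg, 0 of 18660 genes were called by limma (0%), with 651 at an unadjusted p under 0.05 (3.49%), and against 54 µg, 0 were called (0%), with 876 (4.69%). Hspa8 differed from 18 µg by -0.35 (95% CI -0.66 to -0.045) and from 54 µg by -0.074 (95% CI -0.38 to 0.23). For Cirbp the differences were 0.089 (95% CI -0.19 to 0.37) and 0.11 (95% CI -0.17 to 0.38), and for Adamts9 0.036 (95% CI -0.19 to 0.26) and 0.018 (95% CI -0.21 to 0.24). The intervals for Cirbp and Adamts9 leave out differences as large as those against control, so for these genes the 3 doses lay close together and the controls lay apart from all of them.

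Besides the called genes, 17 were named for the smallest p among genes whose treated arrays all lay beyond the controls, and none of them passed the test. Noxo1, an organizer subunit of the NADPH oxidase NOX1, had the largest difference, 1.22 ± 0.23 (SE, adjusted p = 0.108 from limma). It stood at 1.87, 1.42, 0.30 and 0.58 in treated mice and at -0.23 to -0.10 in controls, so that replicates 1 and 2 carried most of it. The other genes with higher values were Herc3 (0.70), Lppos (0.39), Tnfsfm13 (0.34), Shfl (0.50), Ntpcr (0.34), Pitpnm1 (0.34), Cd300lf (0.46) and Neurl2 (0.46). Tnfsfm13 is a readthrough of the neighbouring genes Tnfsf12 and Tnfsf13, with which it has sequence in common, so its value is uncertain. The genes with lower values were Kpna2 (-0.44), an importin that carries proteins into the nucleus, Hnrnpab (-0.42) and Cdc5l (-0.35), which bind RNA or act in splicing, Ftsj3 (-0.53), Taf12 (-0.41), Fkbp4 (-0.59), Ahsa1 (-0.36) and Rnf168 (-0.33). Kpna2 and Hnrnpab came nearest to the threshold (both with an adjusted p = 0.0791 from limma). Over all genes, every treated array lay above every control for 214 genes (1.15%) and below for 214 (1.15%).

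The heat shock list, 28 chaperones, co-chaperones and HSF factors, had a median change of -0.37, against -0.0037 over all genes. Of the 28 members, 26 were negative in sign (51.3% of all genes were) and 2 positive, 1 (Hspa8) was called, 16 were lower at an unadjusted p under 0.05 (3.58% of all genes were) and 8 lay below the controls on all treated arrays (1.15% of all genes did). Array by array, the list's median over the members was -0.48, -0.56, -0.37 and -0.24 on the treated arrays and -0.12 to 0.074 on the controls, so that no treated mouse reached the lowest control. Hsph1, an HSP110 exchange factor for HSP70, showed the largest difference, -1.17 ± 0.28 (SE, adjusted p = 0.311 from limma). It stood at 0.074, -0.11, -0.14, -0.49 and -0.19 in controls and at -1.18, -1.83, -1.51 and -0.87 in treated mice. The spread between controls was 0.21 (SD), close to the 0.19 of Hspa8, and the groups did not overlap. In the 18 µg group of the same fit the SD of Hsph1 was 0.62. Fkbp4 (-0.59 ± 0.12, adjusted p = 0.157) and Ahsa1 (-0.36 ± 0.081, adjusted p = 0.31), both co-chaperones of HSP90, also showed no overlap, as did Chordc1 (-0.42), Stip1 (-0.46), Cacybp (-0.51) and Hspd1 (-0.46), which encodes the mitochondrial chaperonin HSP60. The HSP90 gene Hsp90ab1 stood at -0.44 ± 0.12 and Dnajb1, an HSP40 partner of HSP70, at -0.65 ± 0.16, each with overlap.

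The inducible HSP70 gene Hspa1a had the widest spread between controls of the 28 members (0.97, SD, n = 5). Hspa1a stood at 2.96, 2.34, 2.20, 0.88 and 0.73 in controls 1 to 5 and at 0.64 to 0.94 in treated mice, so that control replicates 1 to 3 were high and replicates 4 and 5 lay among the treated values. Hspa1a and Hspa1b are near-identical copies, and a probe for one can read the other, so their separate values are uncertain. Hsf1 and Hsf2, which encode heat shock transcription factors, stood at 0.020 and 0.024, and Hsf2 was not well above background on any of the 9 arrays. Within the slide that held both groups, where the control was replicate 4, 25 of the 28 members were negative in sign and the list median was -0.29. In that pair Hsph1 differed by -0.68 and Fkbp4 by -0.66, while Hspa1a, Hspa1b, Dnajb1 and Chordc1 differed by -0.10, -0.12, -0.17 and -0.093.

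**Figure D2:**
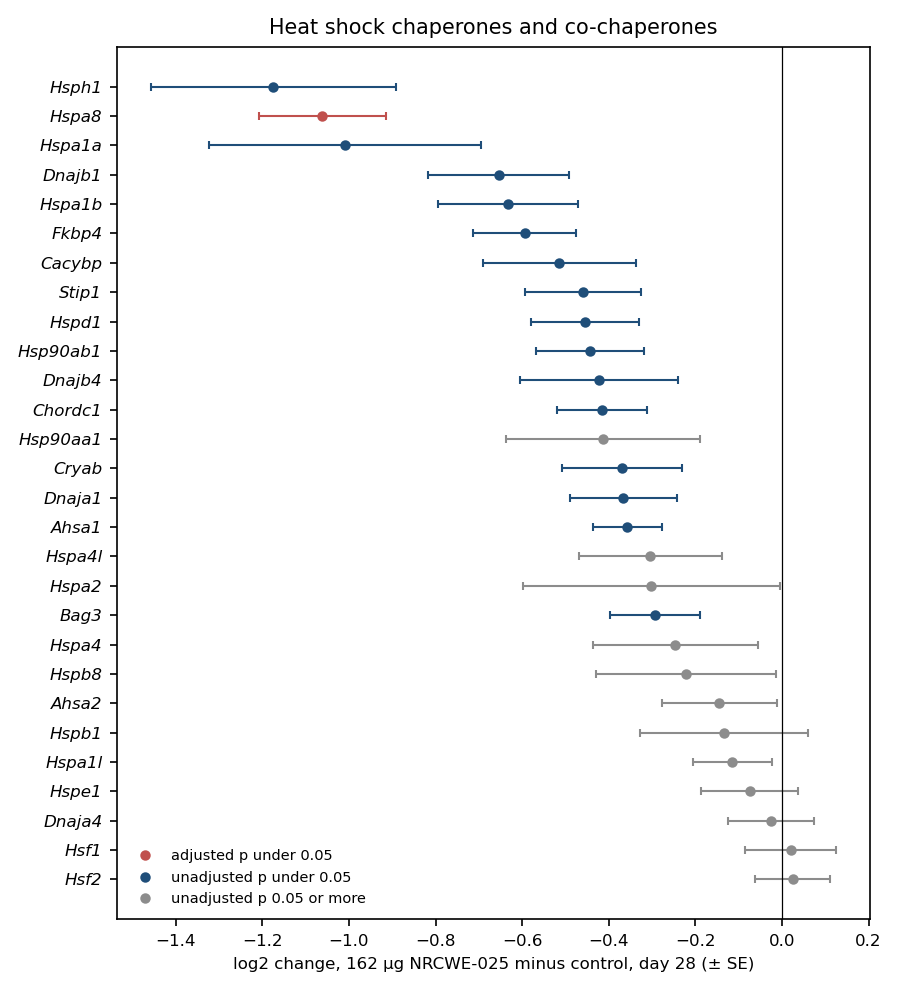
Log2 change of the 28 heat shock list members at 162 µg NRCWE-025 against control on day 28 (horizontal axis, points with SE bars, 4 against 5 arrays). Hspa8 (-1.06, red) was called, blue points had an unadjusted p under 0.05, grey points did not, and 26 of 28 points lie left of 0.

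Medians of the heat shock list in the other groups of day 28, all against the same 5 controls, were -0.14 at 18 µg and -0.19 at 54 µg of NRCWE-025, and -0.33, -0.28 and -0.26 at 18, 54 and 162 µg of NRCWE-030. On day 1, against other controls, NRCWE-025 at 162 µg gave -0.10. Without the controls, the median of the 28 members was -0.11 for 162 against 18 µg and -0.12 for 162 against 54 µg, where all genes had -0.0056 and -0.0025. The difference from 18 µg for Hsph1 was -0.88 (95% CI -1.48 to -0.29) and from 54 µg -0.70 (95% CI -1.30 to -0.11), neither called (adjusted p = 1 and 0.883 from limma). The day 28 controls held the highest mean of Hsph1 of the 14 groups as well, and the treated group had rank 12.

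Promoters are shown for the called genes and for the 3 other heat shock list members with the smallest p, Fkbp4, Ahsa1 and Hsph1, since the sequence that HSF1 binds can be looked for in them. The heat shock element core was searched as GAANNTTC or TTCNNGAA, each of which is its own reverse complement, and the E-box, which clock and MYC factors bind, as CACGTG, on both strands of the 250 bases before the start. Of 32851 RefSeq promoters (GRCm38.p6), 4218 held a core (12.8%) and 1978 an E-box (6.02%), and of the 30 promoters of the 23 heat shock list genes that matched, 11 held a core (36.7%) and 3 an E-box (10%). Of the called genes, Cirbp and Adamts9 matched. Hspa8 is named only. Hsph1 (chr5:149636337-149636586 on the minus strand) has a core from position -33 relative to the start and Fkbp4 (chr6:128438657-128438906 on the minus strand) one from position -151, while Ahsa1 (chr12:87266478-87266727 on the plus strand) holds neither motif. A further Hsph1 promoter in the table (chr5:149636316-149636565) overlaps the first and holds the core, there from position -54, and an E-box from position -19. Cirbp (chr10:80167589-80167838 on the plus strand) and Adamts9 (chr6:92943535-92943784 on the minus strand) hold neither motif in this window, and a further Cirbp promoter (chr10:80167921-80168170) holds neither. The sequences are those of RefSeq, 5′ to 3′ on the gene's strand, with capitals for the core.
Hsph1: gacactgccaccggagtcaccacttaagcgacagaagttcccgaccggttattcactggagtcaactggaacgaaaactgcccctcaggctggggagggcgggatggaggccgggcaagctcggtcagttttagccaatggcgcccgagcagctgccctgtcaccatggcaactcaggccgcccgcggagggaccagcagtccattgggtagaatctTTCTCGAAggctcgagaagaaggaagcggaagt
Fkbp4: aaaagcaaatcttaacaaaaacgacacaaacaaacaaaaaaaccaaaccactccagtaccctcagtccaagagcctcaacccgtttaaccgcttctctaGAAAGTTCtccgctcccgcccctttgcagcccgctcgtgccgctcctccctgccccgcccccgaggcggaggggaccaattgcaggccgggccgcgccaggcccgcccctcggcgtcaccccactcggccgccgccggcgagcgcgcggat
Ahsa1: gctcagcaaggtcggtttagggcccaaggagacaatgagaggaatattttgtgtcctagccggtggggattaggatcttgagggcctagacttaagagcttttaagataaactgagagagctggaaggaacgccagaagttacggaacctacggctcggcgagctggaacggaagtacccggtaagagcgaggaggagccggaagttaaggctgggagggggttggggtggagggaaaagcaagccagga
Cirbp: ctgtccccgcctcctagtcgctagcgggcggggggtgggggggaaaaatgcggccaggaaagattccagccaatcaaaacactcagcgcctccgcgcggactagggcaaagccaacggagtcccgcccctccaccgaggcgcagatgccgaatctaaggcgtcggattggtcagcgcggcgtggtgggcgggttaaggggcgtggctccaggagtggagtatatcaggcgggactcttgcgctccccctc
Adamts9: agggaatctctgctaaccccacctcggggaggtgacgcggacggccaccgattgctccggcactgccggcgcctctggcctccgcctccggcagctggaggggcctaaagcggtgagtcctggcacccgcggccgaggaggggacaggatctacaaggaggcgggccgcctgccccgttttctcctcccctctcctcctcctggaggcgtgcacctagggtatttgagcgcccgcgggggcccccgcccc

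Chaperones and stress genes of the endoplasmic reticulum (ER), which fold secreted proteins, had a median of -0.22 over 18 members. All 18 were negative in sign (51.3% of all genes were), 7 were lower at an unadjusted p under 0.05 (3.58% of all genes), 4 lay below the controls on all treated arrays (1.15% of all genes), and 0 were called by limma. The smallest p-values were those of Herpud1 (-0.40 ± 0.11, adjusted p = 0.372), which acts in the degradation of misfolded ER proteins, Manf (-0.36) and Hsp90b1 (-0.24), the HSP90 of the ER. Array by array, the list's median over the members was -0.21, -0.20, -0.12 and -0.19 on the treated arrays and -0.074 to 0.066 on the controls. The partners of HSC70, co-chaperones that act in folding, the removal of clathrin coats and autophagy, had a median of -0.10 over 16 members, with 0 called. Below the controls on all treated arrays lay 2 of them (1.15% of all genes did), Dnaja2 (-0.30) and St13 (-0.41). Of the 4 genes listed as cold-inducible, Cirbp alone was called, while Rbm3 stood at 0.14 ± 0.19, Srsf5 at 0.17 and Rtn4 at -0.22. Rbm3, the close relative of Cirbp, overlapped between groups, with -0.090, -0.42, -0.37 and -0.87 in treated mice and -0.82 to -0.35 in controls. Its 2 probes differed in sign. One, well above background on every treated and control array, gave 0.43. The other, well above background on 3 of 4 treated and 2 of 5 control arrays, gave -0.14, so the value of Rbm3 is uncertain.

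Inflammation genes differed among the treated mice. Interferon-stimulated genes had a median of 0.49 over 14 members, all positive in sign (48.7% of all genes were), with 4 at an unadjusted p under 0.05 (3.65% of all genes were higher) and 0 called by limma. Array by array, the list's median over the members was 1.45, 0.16, 0.073 and 0.15 on the treated arrays and -0.20 to 0.11 on the controls. Each of the 14 members was highest on treated replicate 1 among the 9 arrays, and without that array the median was 0.14. Irf7, the interferon regulatory factor that drives such genes, stood at 0.85, -1.47, -1.28 and -1.06 in treated mice and at -1.68 to -1.12 in controls. Chemokines had a median of 0.39 over 18 members, of which 15 were positive (48.7% of all genes), 1 was higher at an unadjusted p under 0.05 (3.65% of all genes) and 0 were called. Array by array, the list's median over the members was 1.02, 0.53, -0.073 and 0.019 on the treated arrays and -0.23 to 0.15 on the controls, and without treated replicate 1 the median was 0.14. Cxcl5, a neutrophil attractant, stood at 1.92 ± 0.51 (SE, adjusted p = 0.372 from limma), with 0.21, -0.50, -3.35 and -2.34 in treated mice and -3.78 to -3.14 in controls. Replicates 1 and 2 were thus the highest, replicate 4 lay above the controls and replicate 3 among them.

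Acute phase genes had a median of 0.13 over 14 members, with 0 called by limma, and without treated replicate 1 the median was 0.034. Lcn2, which encodes lipocalin 2, a protein that binds bacterial siderophores, stood at 1.16 ± 0.35 (SE, adjusted p = 0.431), with 3.58, 3.43, 1.80 and 1.38 in treated mice and 1.45, 1.46, 1.52, 1.28 and 1.23 in controls. Treated replicates 1 and 2 were again the high ones. Against 54 µg Lcn2 differed by 1.58 (95% CI 0.85 to 2.32) and against 18 µg by 1.44 (95% CI 0.70 to 2.17), neither called (adjusted p = 0.883 and 1 from limma). Saa3, a serum amyloid A made in lung, stood at 0.94 ± 0.44 (SE), with -0.64, -2.12, -3.72 and -2.95 in treated mice and -3.55 to -2.89 in controls. Lysosome and lipid-loaded macrophage genes had a median of 0.22 over 16 members, 14 positive in sign (48.7% of all genes), 5 higher at an unadjusted p under 0.05 (3.65% of all genes) and 0 called, and without treated replicate 1 the median was 0.22. On the treated arrays the list's median over the members was 0.36, 0.31, 0.19 and -0.017, and on the controls -0.13 to 0.13, so that treated replicate 4 lay among the controls. Trem2, a lipid receptor of macrophages, stood at -0.41, -1.33, -1.55 and -1.88 in treated mice and at -2.06, -1.95, -2.28, -2.03 and -2.10 in controls, with no overlap, and its change was 0.79 ± 0.20 (SE, adjusted p = 0.324 from limma). Gpnmb (0.38), Itgax (0.39), Spp1 (0.78) and the protease gene Ctsk (0.47) followed in order of p. The value of Gpnmb joins a probe well above background on every treated and control array (0.79) and one well above background on no such array (-0.033). Medians of the same list at 18 and 54 µg were 0.016 and 0.0040, and NRCWE-030 at 162 µg gave 0.60, all against the shared controls.

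**Figure D3:**
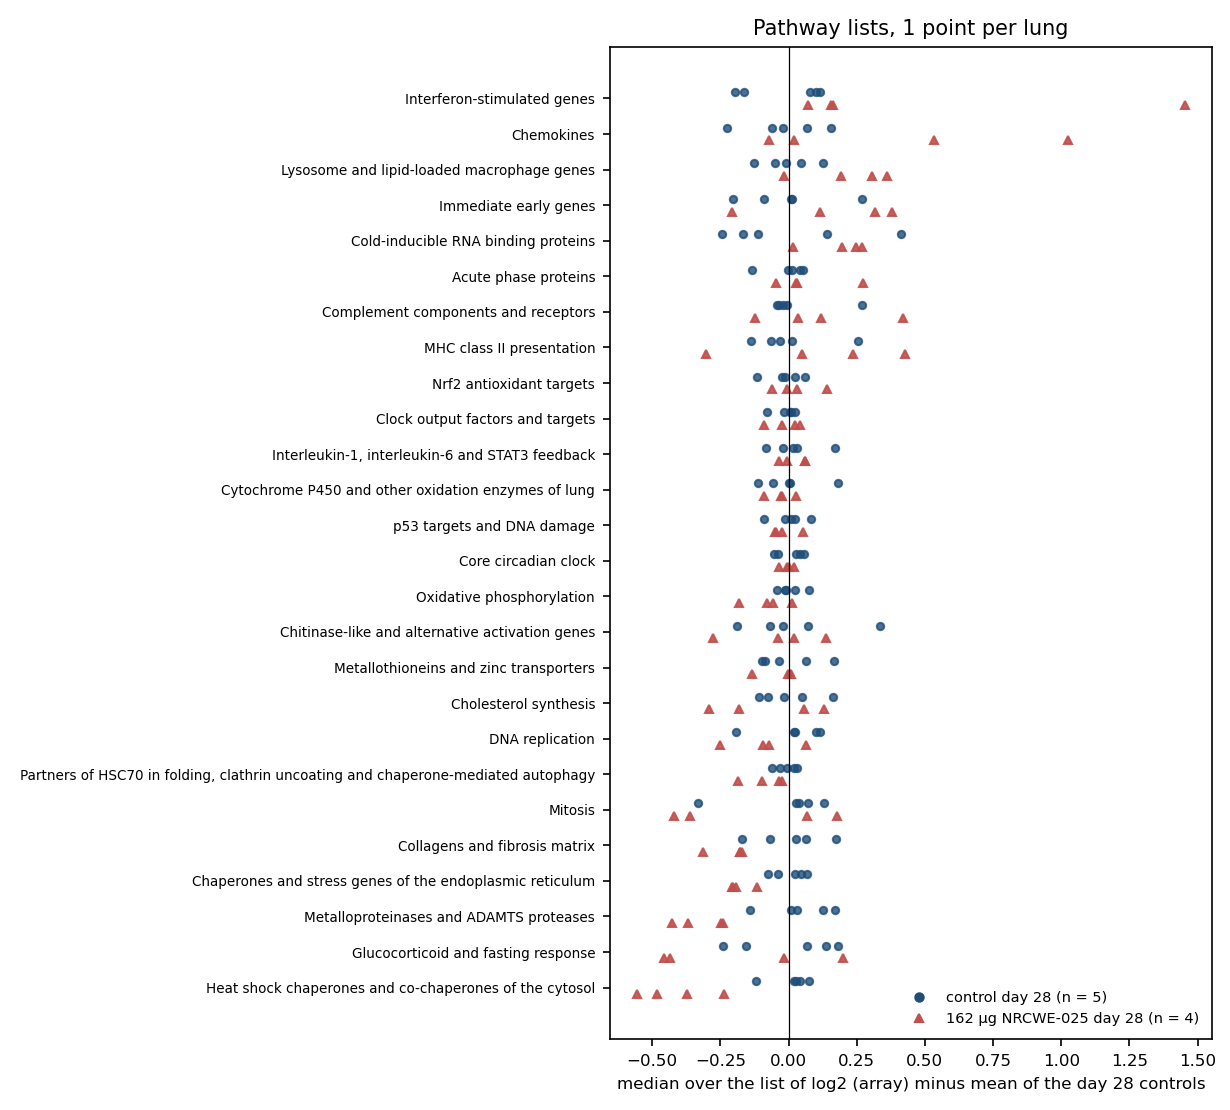
Median over each of the 26 pathway lists of the log2 ratio minus the mean of the day 28 controls (horizontal axis), with 1 point per lung, circles for the 5 controls and triangles for the 4 treated mice. The heat shock triangles lie at -0.56 to -0.24, left of all circles, and the interferon list has 1 triangle at 1.45.

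Collagens and other genes of fibrotic matrix had a median of -0.20 over 17 members, 15 of them negative in sign (51.3% of all genes), with 2 lower at an unadjusted p under 0.05 (3.58% of all genes) and 0 called by limma. Fn1, which encodes fibronectin, stood at -0.60 ± 0.16 (SE, adjusted p = 0.38), with -3.30, -3.21, -2.98 and -3.12 in treated mice and -2.63, -2.82, -2.93, -2.31 and -2.09 in controls, and Col5a2 at -0.43. The 3 probes of Fn1, well above background on every treated and control array, differed in size, with -0.69, -0.47 and -0.083. Metalloproteinases and ADAMTS proteases, a list that also held TIMP inhibitors of such proteases, had a median of -0.29 over 13 members. Of these, 10 were negative in sign (51.3% of all genes) and 3 were lower at an unadjusted p under 0.05 (3.58%). Below the controls on all treated arrays lay 2 (1.15% of all genes), and Adamts9 alone was called (0.0161% of all genes were). Mmp9, a gelatinase that neutrophils carry, stood at -0.72 ± 0.19 (SE, adjusted p = 0.345 from limma), below the controls on all treated arrays. Of the 26 pathway lists, 4 had all treated arrays below all controls (heat shock, ER, collagens and metalloproteinases) and 0 had all above. For collagens the groups all but touched: the list's median over the members was -0.31, -0.18, -0.17 and -0.18 on the treated arrays and -0.17 to 0.17 on the controls, with a gap of 0.000158 between the nearest arrays, against 0.116 for heat shock, 0.0969 for metalloproteinases and 0.0425 for ER. Glucocorticoid and fasting genes had a median of -0.36 over 13 members, 0 called, where the list's median over the members was -0.46, -0.44, 0.20 and -0.017 on the treated arrays and -0.24 to 0.18 on the controls. Their members Klf9 (-0.52) and Tsc22d3 (-0.55) are targets of the glucocorticoid receptor, and replicates 1 and 2 held the low list values. Without treated replicate 1 that median was -0.20. Immediate early genes had a median of 0.20 and the core clock -0.034, with 0 called in either. Within the slide that held both groups the immediate early list stood at -0.23, with the opposite sign. The clock genes Arntl and Per2, opposed in phase, stood at -0.044 ± 0.15 and -0.20 ± 0.11 (SE).

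The remaining pathway lists had 0 called members and medians between -0.13 and 0.10: clock outputs, interleukin-1 and interleukin-6 signalling, chitinase-like genes, complement, MHC class II, Nrf2 targets, metallothioneins, p53 targets, cholesterol synthesis, mitosis, DNA replication, oxidative phosphorylation and cytochrome P450 enzymes. Mitosis genes, for instance, had -0.13 over 19 members, with the treated arrays at 0.18, -0.36, -0.42 and 0.067 and the controls at -0.33 to 0.13. Nrf2 targets, the antioxidant genes, had 0.043 over 16 members. The sign of these small medians was not stable: 9 of the 26 pathway lists, the core clock among them and none with a median beyond 0.10 in size, changed sign in at least 1 other setting or with 1 array left out. In the pair on the slide with both groups, mitosis genes stood at 0.15, with the opposite sign to their -0.13.

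Of the 21 cell type marker lists, 0 had all treated arrays on one side of all controls, and 0 of their members were called by limma. Macrophage markers had a median of 0.14 over 8 members, with Fcgr1 at 0.73 and Itgax at 0.39, while Marco stood at 0.19. Neutrophil markers had -0.33 over 11, with Mmp9 at -0.72, Retnlg at -1.17 and S100a8 at -0.67, but the sign of this median turned with slide as a fixed block (0.13). Scan day as a fixed block is the same fit. In the pair on the slide with both groups, neutrophil markers stood at 0.38 and Retnlg at 0.36, while Mmp9 stood at -0.70. T lymphocyte markers had 0.29 over 8, with treated arrays at 0.58, 0.37, 0.0094 and 0.057 and controls at -0.14 to 0.14. Their members lay between -0.0021 and 0.57 (Cd8a, whose 3 probes gave 0.57, 0.29 and -0.071), and without treated replicate 1 the median was 0.16. Alveolar type 2 markers had -0.043 over 11, alveolar type 1 markers -0.20 over 7, endothelium -0.12 over 10 and fibroblasts -0.10 over 10. Without treated replicate 1, alveolar type 1 markers had -0.066, endothelium -0.052 and alveolar type 2 markers 0.020, the last with its sign turned, and endothelium reached 0.051 in another setting. In all, 15 of the 21 marker lists and 6 of the 10 biclusters of the study changed sign in at least 1 setting or with 1 array left out. Heart muscle markers were at 1.36, -1.36, -1.54 and 1.07 on the treated arrays and -1.03 to 0.98 on the controls, and airway secretory cell markers at 1.81, -1.82, -0.74 and -0.44 and -1.91 to 1.56, so both lists varied between mice of a group by more than between the groups. The part of these tissues in the differences above was not tested.

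The study's 10 biclusters are gene sets it took from disease models of the lung outside this series, and 0 of them had all treated arrays beyond all controls. Bicluster-7, which the study ties to fibrosis, had a median of 0.11 over 19 members, 16 positive in sign (48.7% of all genes), 5 higher at an unadjusted p under 0.05 (3.65% of all genes) and 0 called by limma (Trem2 0.79, Gpnmb 0.38, Il1rn 0.36 and Havcr2 0.27). Like Gpnmb, Il1rn and Havcr2 join a bright probe (0.67 and 0.44) with a dim one (0.045 and 0.095). The dim probe was well above background on no treated array for either gene. Bicluster-3, tied to chemokine activity, had 0.15 over 16, led by Fcgr1 (0.73) and Slc26a4 (1.34). Without treated replicate 1 these medians were 0.061 and 0.042. Bicluster-6 had -0.059 over 23, with 5 members lower at an unadjusted p under 0.05, where 3.58% of all genes were (Pgm2l1 -0.24, Rabep1 -0.22, Ccar1 -0.46 and Kif5b -0.36 first), and the other 7 lay between -0.11 and 0.18.

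The effect of the high dose was compared between days as the change on day 28 minus that on day 1 (5 treated and 5 control mice on day 1), each against the controls of its day. Limma called 11 genes (0.0589%), with 1964 at an unadjusted p under 0.05 (10.5%). Adamts9 had the smallest p, -1.20 ± 0.15 (SE, adjusted p = 7.18e-07): it was 0.52 on day 1 (adjusted p = 0.0378) and -0.68 on day 28. As given above, Adamts9 also differed between the control groups, with 0.74 from day 1 to day 28. Slc13a4, a sulfate transporter, differed by 1.50 ± 0.24 (SE, adjusted p = 0.000769), being -1.13 on day 1 and 0.37 on day 28. For Myom3, a sarcomere protein, the difference was 1.17 ± 0.20 (SE, adjusted p = 0.00131), from -0.76 and 0.41. Higher on day 28 than on day 1 in their effect were further Grb7 (0.78), Hbp1 (0.55), Ccdc28a (0.60), Neurl2 (0.86) and Cbx7 (0.91), and lower were Dusp16 (-0.65) and Kpna2 (-0.81). Of these 10 genes, those with the smallest p, Adamts9 was called on both days and Slc13a4, Myom3 and Grb7 on day 1 (adjusted p = 0.00677, 0.035 and 0.035), while the others were called on neither. The controls of the 2 days differed for Adamts9, Hbp1 (-0.43, adjusted p = 0.00206) and Myom3 (-0.64, adjusted p = 0.0429), and stood at -0.72 for Slc13a4 and 0.50 for Kpna2. This count depended on single arrays: it was 43 without replicate 2 and 17 without replicate 1 of the day 1 treated mice, 34 without treated replicate 1 of day 28, 26 without control replicate 3 of day 1 and 20 without control replicate 4 of day 28. It was 5 to 7 without day 28 controls 1, 2 or 3, day 28 treated replicates 2, 3 or 4, day 1 controls 1, 2 or 5, or day 1 treated replicates 4 or 5, and 130 where slide entered as a random block.

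**Figure D4:**
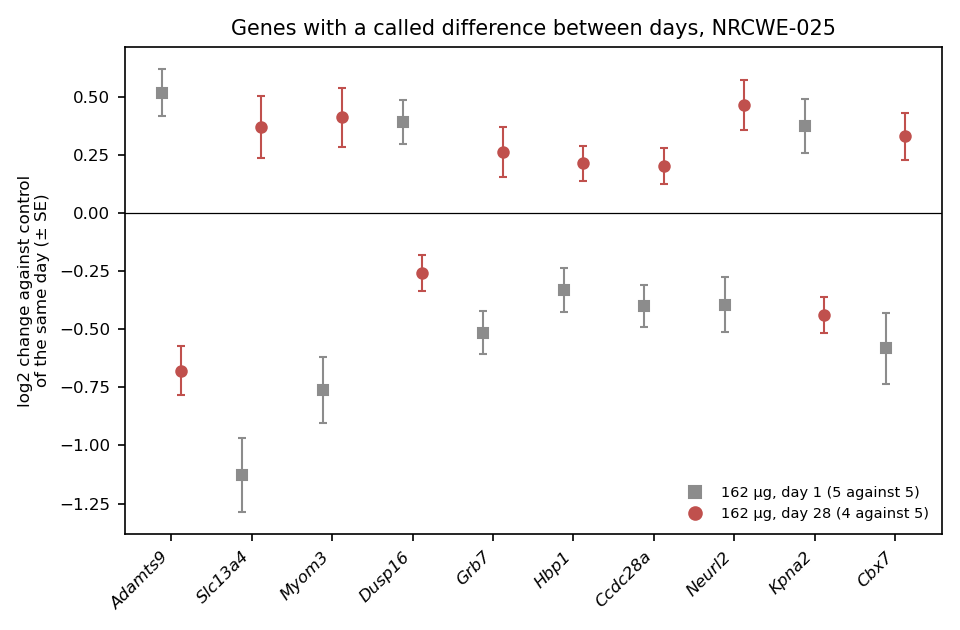
Log2 change against the controls of the same day (vertical axis, points with SE bars) at 162 µg NRCWE-025 on day 1 (squares, 5 against 5 arrays) and day 28 (circles, 4 against 5) for the 10 genes with the smallest p for the difference between days. The days lie on opposite sides of 0 for each of the 10, for example Slc13a4 at -1.13 and 0.37.

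The materials were compared at 162 µg on day 28, a contrast in which the shared controls cancel (4 mice given NRCWE-025, 5 given NRCWE-030). Limma called 3 genes (0.0161%), with 458 at an unadjusted p under 0.05 (2.45%): Per2, a repressor of the circadian clock, and Tspan4, a tetraspanin, were lower with NRCWE-025, and Arntl, an activator of the clock, was higher. Per2 differed by -0.94 ± 0.14 (SE, adjusted p = 0.000209), with -0.061, 0.12, 0.087 and 0.064 in mice given NRCWE-025 and a mean of 0.99 ± 0.19 (SD, n = 5) in those given NRCWE-030. Arntl differed by 1.33 ± 0.25 (SE, adjusted p = 0.0137), with -0.20, 0.62, 0.61 and 0.59 and a mean of -0.92 ± 0.13 (SD, n = 5). The highest NRCWE-030 value of Arntl was -0.71, and the lowest of Per2 was 0.72. Tspan4 differed by -0.84 ± 0.15 (SE, adjusted p = 0.00739). Against the controls, NRCWE-025 stood at -0.044 for Arntl, -0.20 for Per2 and -0.086 for Tspan4, and NRCWE-030 at -1.37, 0.74 and 0.76, so the NRCWE-025 mice lay near the controls for these genes and the NRCWE-030 mice apart from them. For the genes called against control, the materials differed by -0.44 (95% CI -0.87 to -0.0079) for Hspa8, 0.31 (95% CI 0.017 to 0.60) for Cirbp and -0.17 (95% CI -0.38 to 0.046) for Adamts9, none called. The count was 8 without replicate 5 of NRCWE-030, 1 without treated replicate 4, 8 where slide was a random block and 11 with array weights.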

How the data were processed

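Whole-lung RNA of 69 mice was measured on Agilent 2-colour arrays, 1 mouse per array, and arrays were grouped by the material, dose and day in the labels into 14 groups. The deposited scanner files, made with Feature Extraction 11.0.1.1, hold the median pixel intensity of each spot and of its local background for both colours, without correction, with flags for outlying spots and spots well above background. A deposited log10 ratio of lung over reference, computed by that software after its own background subtraction and dye normalization, served as an alternative. The deposited series matrix, also an alternative, gives log2 ratios after the authors' LOWESS step.

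Values were recomputed with limma 3.58.1 in R 4.3.3, with jsonlite 2.0.0 and the package data.table (version 1.17.8). Where the software marked a local background as outlying, the median of the unmarked backgrounds of that array took its place. Then normexp (offset 50) was applied, and ratios were normalized by loess within each array. Control spots and spots marked as outlying were left out, and the median was taken over the spots of a probe and the probes of a gene. Of 41174 probes, 27484 (66.8%) had a symbol in RefSeq for GRCm38.p6, used for names and promoters only since the array design refers to an earlier assembly. Of 18753 symbols, 93 without a value on some array were left out. The comparisons of day 28 within NRCWE-025 came from a fit of 19 arrays (control, 18, 54 and 162 µg), and those between days and materials from a fit of all 69 arrays. All tests were two-sided limma contrasts with Benjamini-Hochberg adjustment over all genes, and the threshold was 0.05.

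Of 783 list members, 746 matched a tested gene, 8 through an older symbol. Besides called genes, the text names the genes with the smallest p whose treated arrays all lay beyond the controls (up to 10 in each direction), up to 4 members of each list with the smallest p (any member of the heat shock and clock lists), the first 2 of each marker list, and up to 10 genes called in each other comparison. Of the genes called between days, 1 is not reported here. Members, lists and rules were chosen with earlier results of these data known. The pipeline was tested on simulated data. The number of mice limits the precision, and the alternatives concerned background, normalization, dim probes, probe choice, arrays in the fit, slide, scan day, array weights and single arrays. Plots were made with matplotlib 3.10.9 in Python 3.11.15.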

Additional observations from a re-analysis of the deposited data

Results flagged for a closer look

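Values of 40 genes were searched for arrays apart from the rest of their group, in 80 groups of values, and 1 was found. By chance about 1 in 20 of such groups would hold one, so the single find is no more than chance gives. Cacybp stood at -1.16 on treated replicate 4, while the other treated arrays lay between -1.54 and -1.48.

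Genes whose effect of 162 µg NRCWE-025 differed between the days (day 28 minus day 1, log2, adjusted p under 0.05 from limma) were, for the 10 with the smallest p, Adamts9 (-1.20), Slc13a4 (1.50), Myom3 (1.17), Dusp16 (-0.65), Grb7 (0.78), Hbp1 (0.55), Ccdc28a (0.60), Neurl2 (0.86), Kpna2 (-0.81) and Cbx7 (0.91). Genes that differed between NRCWE-025 and NRCWE-030 at 162 µg on day 28 were Per2 (-0.94), Tspan4 (-0.84) and Arntl (1.33), with NRCWE-030 subtracted.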

How the results depend on the processing

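The 3 genes called against control became 9 with the scanner's log ratio (2 of the 3 among them), 5 with all 14 groups in the fit, 5 with array weights, and 0 both with values scaled between arrays (1108 at an unadjusted p under 0.05) and with only the groups compared (1281). With slide as a fixed block limma gave 3 genes, 0 of them among the 3 of the stated fit, and leaving out 1 array gave 0 to 6. Scan day as a fixed block gave the same result, since it coincides with slide in the 19 arrays of that fit. The comparisons with 18 and 54 µg stayed at 0 in every setting. The 11 genes that differed between days became 2 with marked backgrounds kept, 31 with the series matrix, 40 with the scanner's log ratio, 2 with values scaled between arrays, 19 without dim probes, 25 with the brightest probe and 7 with only the groups compared. They became 130 and 199 with slide as a random and a fixed block, 161 and 206 with scan day likewise, 156 with array weights, and 5 to 43 with 1 array left out. The 3 genes that differed between materials became 5 with the series matrix, 8 and 6 with slide as a random and a fixed block, 11 with array weights, and 1 to 8 with 1 array left out. Over the 14 settings other than single arrays, the log2 change was -1.12 to -0.92 for Hspa8, 0.85 to 1.04 for Cirbp and -1.42 to -0.64 for Adamts9, and the heat shock list median was -0.44 to -0.33. None of the 33 gene changes against control that were recomputed changed sign, but the medians of 30 of the 57 gene lists did in at least 1 setting or with 1 array left out. Among them neutrophil markers went from -0.33 to 0.13 where fixed blocks were fitted, endothelium from -0.12 to as high as 0.051, heart muscle from -0.15 to as high as 0.34 with 1 array left out, and complement from 0.10 to -0.050 without treated replicate 1 and -0.054 with the scanner's log ratio. The heat shock, ER, collagen, metalloproteinase, interferon, chemokine and lysosome medians kept their sign. The cause of these changes was not tested. Fits of all 14 groups are the stated fits for days and materials and were not run again as an alternative. No paired analysis was possible because the labels carry no replicate numbers that groups have in common, and replicates are numbered in accession order. Spots near background limit dim genes such as Hsf2.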
